A study of Mus musculus with 7 samples.

Results

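mmu-miR-378 is the arm of the mouse miR-378 hairpin that the normalized table of this series holds, and it is described here together with the opposite arm of the same hairpin. The hairpin was picked by name, because mmu-miR-378 stood out in sphere-derived cells in earlier results of these same arrays. Its higher level in those cells is therefore given as a description, with no test. The array measured 696 mouse miRNAs, 2 of which are the arms of this hairpin (named miR-378a-3p and miR-378a-5p by the scanner), and 1 of these arms is among the 252 mouse miRNAs of the normalized table. No other member of the miR-378 family was on the array.

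A miRNA is cut as a short duplex from a hairpin, one strand is usually loaded into the silencing complex, and bases near its 5′ end (the seed) pair with target mRNAs. The miR-378 hairpin lies in an intron of Ppargc1b, the gene of a coactivator of mitochondrial and lipid metabolism. miR-378 is known from muscle differentiation, adipogenesis, energy metabolism and angiogenesis.

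The cells came from soft tissue sarcomas of p53-knockout mice, so all 3 groups lacked p53. Control primary cells (n = 2 arrays) carried a non-target shRNA, and Rb-depleted primary cells (n = 2) an shRNA to Rb, the retinoblastoma tumour suppressor. Both were selected with puromycin and grown in 2D culture with serum. Rb-depleted secondary cells (n = 3) were Rb-depleted cells that had grown for 10 to 14 days as spheres in serum-free methylcellulose with B27, EGF and bFGF, after which spheres were picked by hand, pooled and passaged once in 2D culture. No secondary cells with the control shRNA and no mRNA were among the arrays, so Rb depletion and sphere passage cannot be told apart between secondary and control cells, and the knockdown was not checked here. The animals' age and the number of tumours are not given in the sources used here, and the design text describes replicates as independent experiments.

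All 4 primary arrays and secondary array 1 shared a slide, and secondary arrays 2 and 3 shared another. The scanner detected 258 to 287 of the 696 mouse miRNAs per array, fewest on secondary array 1. Among cell type markers, all 11 arms of the mesenchymal list (miR-143, miR-145, miR-199, miR-214, miR-21 and miR-22) were in the normalized table, while all 13 epithelial arms and all 6 blood arms were detected on no array. Of the 9 arms of muscle miRNAs, 8 were detected on no array, and the other was miR-206, a skeletal muscle miRNA. Of the 2 arms of the endothelial miR-126, miR-126-5p was detected on no array, and miR-126-3p had total gene signals of 10.7 and 9.84 in control cells and 9.10 and 7.02 in Rb-depleted primary cells and was not detected on the 3 secondary arrays.

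The miRNAs that followed miR-378 most closely across arrays are shown with their mature sequences (RefSeq, GRCm38.p6), the seed, bases 2 to 8, in capitals. They were taken by rank in the deposited values. The first 5 had the highest and the last 2 the lowest correlation with miR-378 among the 252 miRNAs. A correlation over 0.9 was held by 10 of the 251 compared, so the cut at 5 is arbitrary. Other settings kept 1 to 4 of the first 5. No sequence of the miR-378 hairpin is shown.
miR-132: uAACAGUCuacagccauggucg
miR-152: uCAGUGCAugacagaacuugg
miR-149: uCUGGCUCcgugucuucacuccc
miR-34b-5p: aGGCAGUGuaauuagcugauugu
miR-27b: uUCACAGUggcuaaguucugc
miR-2137: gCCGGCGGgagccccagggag
miR-1982*: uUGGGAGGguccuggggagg
The 7 sequences had 7 different seeds.

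miR-378 was higher in sphere-derived secondary cells than in either group of primary cells, on every array. Control primary cells had deposited log2 values of 2.01 and 2.17. The values were 3.25 and 2.11 for Rb-depleted primary cells, against 4.44, 4.36 and 5.20 for Rb-depleted secondary cells. The lowest secondary array thus lay 1.11 above the highest primary array on the log2 scale, and the Rb-depleted primary arrays lay on both sides of the higher control array. The means were 2.09 ± 0.116 (SD, n = 2), 2.68 ± 0.807 (SD, n = 2) and 4.67 ± 0.466 (SD, n = 3). The difference between secondary and control cells was 2.58 (log2, standard error 0.41), the largest increase among the 252 miRNAs, and that between secondary and Rb-depleted primary cells was 1.99 (standard error 0.41), the 4th largest. With the secondary arrays fully above the control arrays, miR-378 was 1 of 75 miRNAs (29.8% of the 252), and fully above the Rb-depleted primary arrays 1 of 68 (27%), and nothing is read from these counts.

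**Figure D1:**
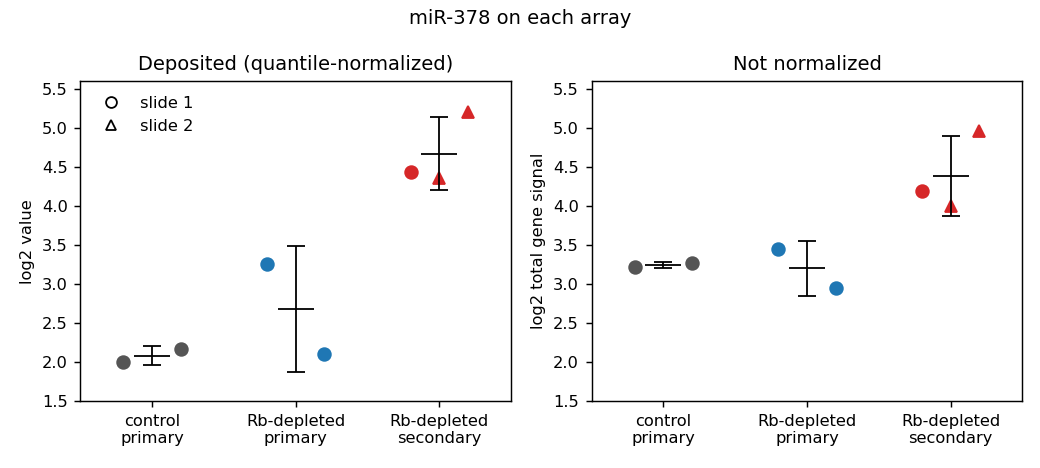
Level of miR-378 on each array by group, as the deposited log2 value (left) and as the log2 total gene signal without normalization (right), on the same y axis range. Points are arrays (circles slide 1, triangles slide 2), and bars give the mean and SD. The 3 secondary arrays sit at 4.36 to 5.20 on the left and at 4.0 to 4.96 on the right, above all primary arrays in both panels.

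The probes of miR-378 gave dim signals. In order from the lowest deposited value of the 252 miRNAs it held place 7 and 8 in control cells, 10 and 7 on the Rb-depleted primary arrays, and 30, 28 and 55 in secondary cells. Probes of different miRNAs respond differently, so this order is one of intensity and not of abundance. Before normalization its total gene signal, the scanner's intensity summed over the probes it counts, was 9.28 and 9.66 in control cells. It was 10.96 and 7.75 on the Rb-depleted primary arrays, and 18.3, 16.0 and 31.1 in secondary cells. The secondary arrays were again the highest and did not overlap the primary arrays, which overlapped each other. The scanner called miR-378 detected on all 7 arrays. Its signal was 3.13 and 3.01 times its error in control cells, the lowest ratios, and 7.98 times on secondary array 3, the highest.

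Without normalization the log2 difference between secondary and control cells was 1.14, and the ratio of the mean signals was 2.30. The difference was still the 3rd largest of the 252 miRNAs, but it was 1.44 smaller than in the deposited values. The corresponding gap between deposited and unnormalized differences had a median of 0.49 over the 252 miRNAs, and 3 miRNAs, miR-378 included, had a gap this large. The deposited value of miR-378 minus its log2 signal was -1.21 and -1.10 in control cells, -0.20 and -0.84 on the Rb-depleted primary arrays, and 0.25, 0.36 and 0.25 in secondary cells, so normalization moved it down on primary and up on secondary arrays. Quantile normalization replaces each value with the mean of the values at the same rank on all arrays. At the rank that miR-378 held on both control arrays and on Rb-depleted primary array 2, that mean took in 1 array at the scanner's floor of 0.1. This was secondary array 1, which had 449 features at the floor, against 420 to 431 on the other arrays. A value at the floor lowers such a mean.

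**Figure D2:**
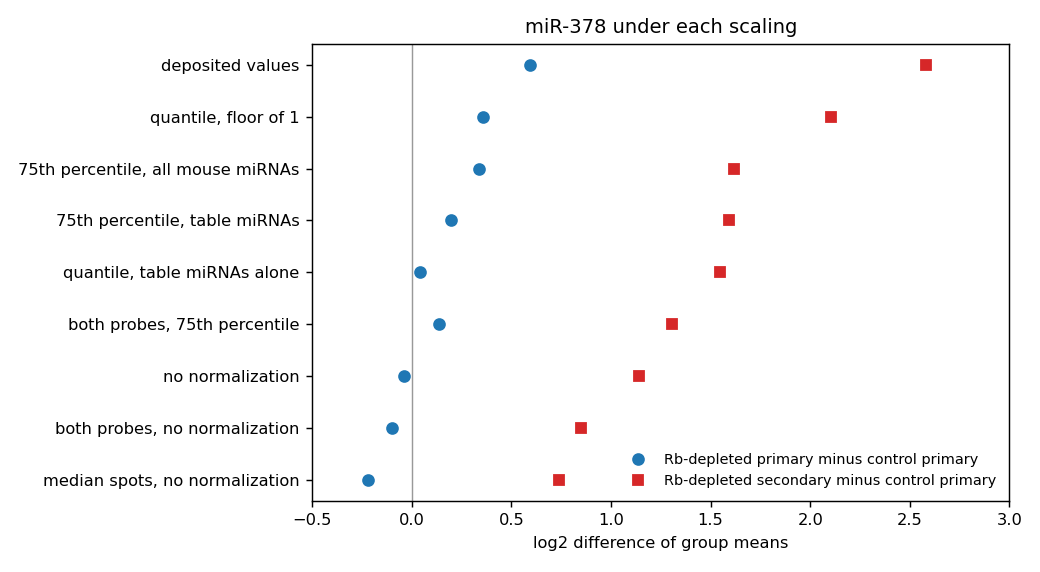
Log2 difference of group means for miR-378 (x axis) under the deposited values and 8 other scalings or signal summaries (y axis), for Rb-depleted primary (circles) and secondary cells (squares) against control primary cells. The secondary cells' difference runs from 2.58 to 0.74 and stays above 0, while that of the primary cells runs from 0.59 to -0.22 across 0.

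The array carried a pair of probes for miR-378, each in 10 spots. Probe 1, the brighter, had mean spot signals (background-subtracted intensity) of 14.2 and 14.6 in control cells, 17.1 and 11.7 on the Rb-depleted primary arrays, and 27.5, 24.3 and 33.7 in secondary cells. Probe 2 gave 8.37 and 7.04, then 8.60 and 4.77, and 9.88, 9.93 and 13.3 in the same order. Both probes were thus higher on each secondary array than on any primary array, by at least 7.17 for probe 1 and 1.28 for probe 2. The group mean of secondary cells was 1.98 times that of control cells on probe 1 and 1.43 times on probe 2. Of the 10 spots of probe 2, 3 and 3 exceeded the 95th percentile of the negative control spots in control cells. This count was 6 and 0 on the Rb-depleted primary arrays, and 6, 6 and 10 in secondary cells. For probe 2 the gap was between Rb-depleted primary array 1 (8.60, standard error over 10 spots 1.05) and secondary array 1 (9.88, standard error 2.22), and was smaller than the error of the latter.

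The scanner's total gene signal did not sum the same probes on every array. It counted probe 1 alone on 6 arrays and both probes on secondary array 3, where the signal of probe 2 was 3.80 times its error. On the other 6 arrays this ratio was between 1.40 and 2.68. Every probe signal of miR-378 that was counted was at least 3.01 times its error, and those of the control arrays lay nearest to this bound. With both probes summed on every array, the signal was 14.8 and 14.0 in control cells, 16.5 and 10.9 on the Rb-depleted primary arrays, and 24.8, 22.5 and 31.1 in secondary cells. Secondary array 3 remained the highest, and the log2 difference between secondary and control cells was 0.85 without normalization. Leaving out secondary array 3, the deposited difference was 2.31.

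**Figure D3:**
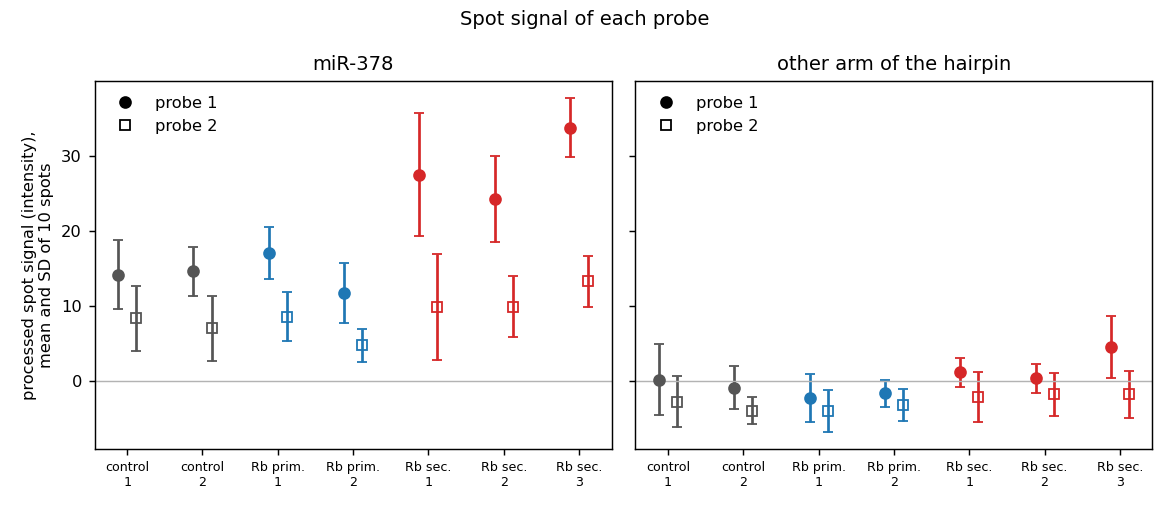
Mean and SD of the processed signal over 10 spots (y axis, intensity) on each of the 7 arrays (x axis), for the probes of miR-378 (left) and of the opposite arm (right). Filled circles are probe 1 and open squares probe 2. Probe 1 of miR-378 lies at 24.3 to 33.7 in secondary cells and at 11.7 to 17.1 in primary cells, and the opposite arm lies between -3.95 and 4.53, highest for probe 1 on secondary array 3.

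The slides were checked through secondary array 1, which was run beside the primary arrays. Its deposited log2 value lay 2.27 above the higher control array and 1.19 above the highest primary array. Without normalization these gaps were 0.92 and 0.74. Secondary array 2, on the other slide, had a deposited value 2.19 above the higher control array. The gap was therefore present within the slide of the primary arrays, in 1 array.

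The comparison of Rb-depleted with control primary cells asked whether miR-378 changed with Rb depletion alone. That comparison did not choose miR-378, but it shares the control arrays with the difference between secondary and control cells that did. It is therefore not independent of the choice. The log2 difference was 0.59 (standard error 0.45), and it did not pass the test (limma, Benjamini-Hochberg adjusted p = 0.443 over 252 miRNAs). In this comparison 4 of the 252 miRNAs passed (1.59%), 1 of them higher (0.397%) and 3 lower (1.19%) in Rb-depleted cells. The direction was not steady either: Rb-depleted primary array 1 was above both control arrays and array 2 between them, and the difference was -0.039 without normalization and -0.22 from the median spot signals. Leaving out Rb-depleted primary array 1 gave 0.024, and leaving out array 2 gave 1.17.

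The opposite arm of the hairpin was at the scanner's floor of 0.1 and not detected on any of the 7 arrays. Of its pair of probes, probe 1 had mean spot signals of 0.21 and -0.86 in control cells, -2.22 and -1.64 on the Rb-depleted primary arrays, and 1.16, 0.35 and 4.53 in secondary cells. The negative control spots had medians of 2.55 to 3.74, so only secondary array 3 lay above its array's negative control median, by 1.29. Probe 2 had mean spot signals below 0 on all 7 arrays.

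**Figure D4:**
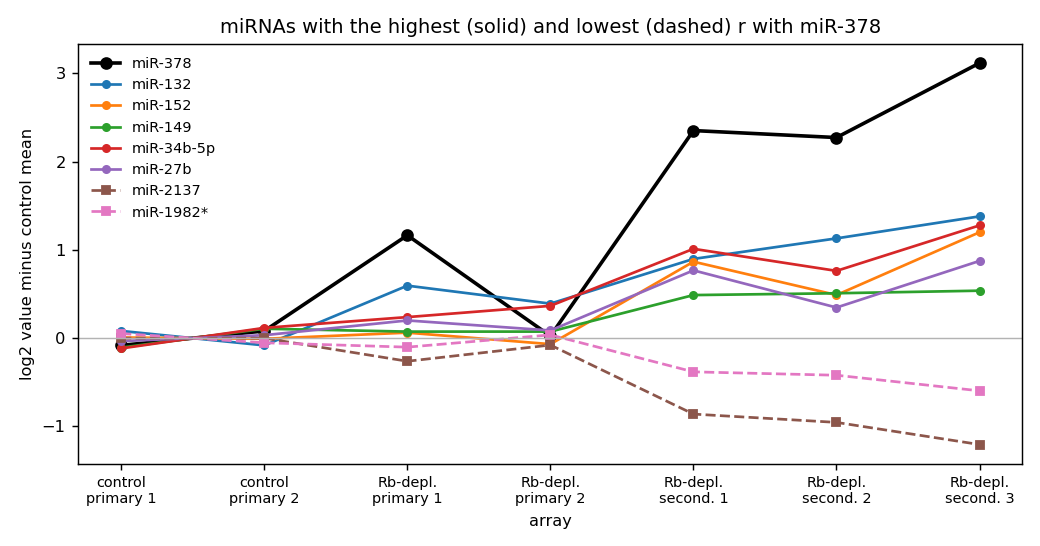
Deposited log2 values minus the control mean (y axis) on the 7 arrays (x axis) for miR-378 and for the 5 miRNAs with the highest (solid) and the 2 with the lowest (dashed) Pearson correlation with it. Lines only link the values of a miRNA. miR-378 reached 3.12 on secondary array 3, above all others shown.

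Likeness was measured as Pearson's r over the 7 arrays against each of the other 251 miRNAs, with a median r of 0.094. The arrays share groups and slides, so r is a description. The 5 most alike were miR-132 (r = 0.95), miR-152 (0.94), miR-149 (0.93), miR-34b-5p (0.93) and miR-27b (0.93). Their deposited differences between secondary and control cells were smaller than that of miR-378, at 1.14, 0.85, 0.51, 1.02 and 0.66 in the same order.

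Without normalization miR-132 still had the highest r with miR-378 (0.95), while miR-149 fell to place 22 with r = 0.57, and its secondary and control means differed by 0.0072 on the log2 scale. miR-132 is induced by CREB and known from neurons and blood vessels, miR-34b is a p53 target, and miR-27b is known to repress adipogenesis. The levels of miR-34b-5p were 7.15 and 7.39 in control cells, 7.51 and 7.64 on the Rb-depleted primary arrays, and 8.28, 8.03 and 8.55 in secondary cells. The 2 miRNAs that ran most opposite to miR-378 were miR-2137 (r = -0.98) and miR-1982* (r = -0.98). Deposited values of miR-2137 were 7.60 and 7.60 in control cells, 7.34 and 7.52 on the Rb-depleted primary arrays, and 6.74, 6.65 and 6.40 in secondary cells. Of the sequences shown above, these had the most G and C, 85.7% in miR-2137 and 70.0% in miR-1982*, against 39.1% to 60.9% in the 5 most alike.

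Each mature sequence matched the mouse genome (NCBIM37, mm9, the build in the file headers; chromosome 18 was left out of the search) at 1 place, where the gencode annotation gave a miRNA gene. miR-132 lies at chr11:74987225-74987246 in an intron of the lincRNA 1700016P03Rik, and miR-152 at chr11:96711753-96711773 in an intron of Copz2, a coatomer subunit gene. miR-149 lies at chr1:94746958-94746980 in an intron of Gpc1, the gene of the proteoglycan glypican, and miR-27b at chr13:63402068-63402088 in an intron of 2010111I01Rik. All 4 are on the plus strand. miR-34b-5p lies at chr9:50911715-50911737 on the minus strand, with no other annotated gene over it. miR-2137 lies at chrX:70237452-70237472 in an intron of Zfp185, and miR-1982* at chr10:80291553-80291572 in an intron of Oaz1, both on the plus strand. Thus 6 of the 7 lie in introns of other genes, among them miR-2137 and miR-1982*, which ran opposite to miR-378. The share over the 252 miRNAs was not counted, so nothing is read from this.

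Other miRNAs of the processes miR-378 is known for were read from lists. None of their members passed the test between Rb-depleted and control primary cells. As only 4 of the 252 miRNAs (1.59%) passed there, nothing is read from this. Between secondary and control cells 22.6% of the 252 miRNAs passed (33 higher, 13.1%, and 24 lower, 9.52%), and between secondary and Rb-depleted primary cells 20.2% passed (32 higher, 12.7%, and 19 lower, 7.54%). The balance of directions turned over without normalization, with 5 higher and 109 lower against control cells and 10 higher and 35 lower against Rb-depleted primary cells. When arrays were scaled by the 75th percentile of these miRNAs, the splits were 9 higher and 20 lower, and 21 higher and 13 lower. With that of all mouse miRNAs, they were 30 higher and 26 lower, and 26 higher and 35 lower. The miRNAs of these lists that passed, cell type markers aside, numbered 13 against control and 7 against Rb-depleted primary cells. With slide as a term, where secondary cells rest on array 1, 1 and 0 of the listed miRNAs passed, as did 6 and 0 of the 252, of which 76 and 67 had an unadjusted limma p under 0.05. All adjusted p-values below are from limma over the 252 miRNAs. The median log2 difference of all 252 miRNAs between secondary and control cells was 0.032 in the deposited values and -0.46 without normalization.

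Of the muscle miRNAs themselves, miR-206 was the one in the table. Its deposited values were 5.18 and 5.29 in control cells, 5.32 and 4.93 on the Rb-depleted primary arrays, and 4.17, 5.32 and 3.86 in secondary cells. The groups overlapped, and the difference between secondary and control cells, -0.78, did not pass (adjusted p = 0.254). Of 14 arms of miRNAs that rise in muscle differentiation, 5 passed as higher and 0 as lower in secondary than in control cells. The median difference of the list was 0.083, and the 9 arms that did not pass had differences from -1.01 to 0.17. The largest increases were in miR-181a (0.88, adjusted p = 0.00640), miR-27b (0.66, 0.0419) and miR-29a* (0.63, 0.0335). Against Rb-depleted primary cells 3 passed as higher: miR-181a (0.68, adjusted p = 0.0146), miR-214* (0.40, 0.0337) and miR-29b (0.30, 0.0411). Without normalization the difference between secondary and control cells was below 0 for miR-29a*, miR-29b and miR-214*, and 0.099 for miR-181a.

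Of 17 arms of adipogenesis-promoting miRNAs, 3 passed as higher and 1 as lower in secondary than in control cells. The median difference of the list was 0.038, and the 13 arms that did not pass had differences from -0.54 to 1.13. miR-196a, from the Hox clusters, was higher by 2.21 (adjusted p = 0.0411), miR-148a by 1.39 (0.0402) and miR-30d by 0.43 (0.0298), while miR-193b was lower (-1.10, adjusted p = 0.0290). Against Rb-depleted primary cells 3 passed as higher, namely miR-196a (3.35, adjusted p = 0.0172), miR-148a (1.44, 0.0413) and miR-143 (0.62, 0.0465). Of 7 arms of adipogenesis-repressing miRNAs, 3 passed as higher and 0 as lower in secondary than in control cells, with a median of 0.30 over the list. These were miR-155 (0.99, adjusted p = 0.0398), miR-27b (0.66, 0.0419) and miR-130a (0.45, 0.0246). None of the 7 passed against Rb-depleted primary cells. Without normalization the difference between secondary and control cells was 0.015 for miR-30d, 0.15 for miR-27b and -0.046 for miR-130a, against 1.61 for miR-196a, 0.92 for miR-148a, 0.56 for miR-155 and -1.46 for miR-193b. Against Rb-depleted primary cells it was 2.14 for miR-196a, 1.36 for miR-148a and 0.33 for miR-143. miR-196a was dim, with total gene signals of 10.4 and 8.60 on the Rb-depleted primary arrays. Its signal was 17.7 on secondary array 2, against 15.7 on control array 1.

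Of 11 arms of angiogenesis-linked miRNAs, 3 passed as higher and 0 as lower in secondary than in control cells. The median difference of the list was 0.32, and the 8 arms that did not pass had differences from -0.52 to 1.13. miR-132 was higher by 1.14 (adjusted p = 0.0118), miR-130a by 0.45 (0.0246) and miR-18a, of the miR-17 cluster, by 0.33 (0.0323). Without normalization miR-130a and miR-18a had differences below 0, and that of miR-132 was 0.57. Only miR-132 of this list passed against Rb-depleted primary cells (0.64, adjusted p = 0.0465). With slide as a term 0 of the 252 miRNAs passed in that comparison, so this call and those of the other lists ended.

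Of the 11 mesenchymal marker arms, 2 passed as higher in secondary than in control cells, where 13.1% of the 252 miRNAs did. The 9 arms that did not pass had differences from -0.052 (miR-145) to 0.41 (miR-143). The 2 that passed were miR-199a-3p (0.37, adjusted p = 0.0298) and miR-214* (0.35, 0.0402). Without normalization the differences of these 2 were 0.070 and -0.12. Against Rb-depleted primary cells 5 of the 11 passed as higher, where 12.7% of the 252 miRNAs did. The largest differences were those of miR-199b* (0.68, adjusted p = 0.0159), miR-143 (0.62, 0.0465) and miR-199a-3p (0.60, 0.0146). Of the neural markers, 3 arms of 5 were in the table and none passed in any comparison. As bulk RNA was measured, fewer cells of a type and less RNA per cell cannot be told apart, and the part of a changed cell mix, as marked by miR-126-3p or the mesenchymal arms, in the level of miR-378 was not tested.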

How the data were processed

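Total RNA (100 ng, RNA integrity number 10) was labelled with Cy3 and hybridized to 7 Agilent mouse miRNA arrays of the 1-colour type. The authors deposited, for each array, the scanner's spot and gene intensity, and for the series a table of log2 values of 252 mouse miRNAs and 11 control rows made by quantile normalization in GeneSpring. The submitters' processing notes name Feature Extraction 10.7.3.1 and the file headers 11.0.1.1. The deposited log2 values were rebuilt by quantile normalization of the log2 total gene signal over 718 features, to within 3.243e-06. All 252 names were matched to the scanner's names by these rebuilt values, and 1 of them (miR-1274a, scanner name miR-5097) has a different number there.

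The log2 values were fitted in limma 3.58.1 (R 4.3.3) with 3 group means over all 7 arrays and empirical Bayes moderation. P-values were adjusted by the Benjamini-Hochberg method over 252 miRNAs, with a threshold of 0.05. The fit was tested on simulated data. Figures were drawn with matplotlib 3.10.9 and tables read with pandas 2.3.3 (Python 3.11.15). The number of arrays limits precision.

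miR-378, the lists and the alternatives were chosen with earlier results of these data known. Named miRNAs are the arms of the hairpin, the 5 with the highest and 2 with the lowest r, marker lists, and list members with an adjusted p under 0.05, at most 3 per direction, list and comparison, by size. miR-206 and miR-126 were named as the list members left after counting, with their values seen. Mature sequences were read from RefSeq and matched to NCBIM37 on both strands.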

Additional observations from a re-analysis of the deposited data

Results flagged for a closer look

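Probe 1 of the opposite arm of the miR-378 hairpin gave a mean spot signal of 4.53 on secondary array 3, outside the normalized table and above both control arrays (0.21 and -0.86). On that array 6 of its 10 spots were above background, against 1 and 0 in control cells. The counts were 1 and 0 on the Rb-depleted primary arrays, and 0 and 1 on secondary arrays 1 and 2. On secondary array 3 the signal was 1.38 times its error, and the scanner did not call the arm detected. There 2 of the 10 spots exceeded the 95th percentile of the negative control spots. Secondary array 3 was also the array with the highest miR-378.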

How the results depend on the processing

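The difference of miR-378 between secondary and control cells stayed above 0 (0.74 to 2.73) in the 16 of 21 alternatives that could move it, and that between secondary and Rb-depleted primary cells (0.95 to 2.56) in 16 of 20. Against control cells it was 1.14 without normalization, 1.59 and 1.62 when scaled to the 75th percentile of the 252 or of all mouse miRNAs, 1.55 with quantile normalization of the 252 alone, 0.74 from median spot signals, and 0.85 and 1.30 with both probes summed (unnormalized and 75th percentile, both chosen after seeing the data). Against Rb-depleted primary cells the corresponding values were 1.18, 1.40 and 1.28 (percentiles), 0.96 (spots), and 0.95 and 1.17 (both probes). Leaving out each array gave 2.31 to 2.73 and 1.41 to 2.56, the last 2 without Rb-depleted primary array 2 and 1. Between Rb-depleted and control primary cells the sign reversed without normalization (-0.039), from spots (-0.22) and with both probes summed (-0.097). Leaving out each array gave 0.024 to 1.17. It passed in none of the 22 alternatives (adjusted p 0.358 to 1). A floor of 1 with all mouse miRNAs gave 2.11 against control cells.

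Whether the replicate numbers pair the arrays was not settled here, as deviations in a group of 2 arrays mirror each other. Correlations of same-numbered deviations were 0.13, 0.074, 0.044, -0.084 and -0.14. With the replicate block, which leaves secondary array 3 without a partner, miR-378 differed by 2.31 and 1.72, and by 0.59 in primary cells, and 0, 4 and 0 miRNAs passed (primary, secondary against control, secondary against Rb-depleted primary). With slide as a term, where secondary cells rest on array 1, the counts were 0, 6 and 0.

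Counts of miRNAs that passed moved as follows. Rb-depleted against control primary cells (4) gave 27 without normalization (0 of them of the lists), 0 with either percentile, and 8 with array weights. It gave 0 with these groups alone, 8 at a threshold of 0.1, 8 of 292 miRNAs with a floor of 1, and 0 to 12 without each secondary array. The classical test gave 28 at Dunnett's p under 0.05, after an analysis of variance at adjusted p under 0.1. Dunnett's p was not adjusted over miRNAs, so this criterion differs from that of the 4. The 0 counts at the percentiles, block, slide and pair fits were of limma, and the deposited values had 64 miRNAs at an unadjusted p under 0.05. Secondary against control cells (57) gave 114 without normalization, 29 with the 75th percentile of the 252, and 1 to 74 without each array (1 without control array 1, which leaves 1 array in that group). Secondary against Rb-depleted primary cells (51) gave 19 with these groups alone, 93 at 0.1, and 2 to 66 without each array (2 without Rb-depleted primary array 2). The listed miRNAs that passed numbered 13 against control cells, and 20 without normalization, 4 with the 75th percentile, 0 with the block, 1 with slide and 0 to 19 without each array. Against Rb-depleted primary cells they numbered 7, and 0 with the block, 0 with slide and 0 to 16 without each array, while in primary cells the range was 0 to 1.

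Of the 5 miRNAs most like miR-378, the top 5 held 3 without normalization, 2 with the 75th percentile of the 252, 2 with quantile normalization of the 252 alone, 2 by Spearman's rho, 1 by distance, and 1 to 4 without each array (1 without secondary array 3). The opposite arm was detected on 0 arrays throughout.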

Other observations

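By the distance between profiles centred on the control mean, which takes the size of the change into account, the miRNAs nearest to miR-378 were miR-574-3p (2.18), miR-148a (2.45), miR-7a* (2.62), miR-132 (2.64) and let-7d* (2.73). Of these, miR-132 was also among the 5 with the highest r. The measure was a listed alternative, and the other 4 miRNAs were named after their values were seen.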
